A study of Mus musculus with 32 samples.

Results

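Leukocyte lineage genes were followed in uteri of newborn mice, as 37 gene symbols that mark leukocytes in general (7 genes), macrophages and other myeloid cells (15), granulocytes (7), mast cells (2) and lymphocytes (6). A member was read from array probes annotated to exactly 1 of these symbols. Such probes were found for 35 members and not for Cd68 and Csf1r, which are not analysed here. Elane, Siglecf and Prg2 did not pass the filter on dim probes, since they lay above the 30th percentile of their array on 0, 2 and 2 of the 32 arrays. The other 32 members were tested among 17145 genes. These were all 7 pan-leukocyte genes, 13 of 15 macrophage and myeloid genes, 4 of 7 granulocyte genes, both mast cell genes and all 6 lymphocyte genes.

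RNA from whole uteri of CD-1 mice labelled female was measured on postnatal day 5 with 32 Agilent arrays of 1 colour, in 8 groups of 4 biological replicates per the series design. Mice of the Esr1 line were wild type or conditional knockout (cKO) for estrogen receptor alpha and had received vehicle or the synthetic estrogen diethylstilbestrol (DES). Mice of the other lines were wild type or cKO for the forkhead transcription factor genes Foxa2 or Foxo1, and all had received DES. The sources used here do not state the DES dose, the Cre driver that made the deletions, or the litters.

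Leukocytes arise from blood-forming stem cells and enter the uterus as circulating cells or settle there as resident macrophages and mast cells. In the adult rodent uterus, estrogen is known to bring in eosinophils, neutrophils and macrophages, and mast cells lie in the muscle layer and stroma. Macrophages are known by surface receptors for antibodies and bacterial products and by secretion of the complement protein C1q, granulocytes by stored antimicrobial proteins, mast cells by stored proteases and the receptor Kit, and lymphocytes by antigen receptors with their CD3 or CD79 signalling chains. In whole tissue, fewer cells of a type and less RNA per cell cannot be told apart, and this holds for every level below.

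Promoters of 6 members are shown because these genes carry the differences described below. Itgam had the largest rise with DES in Esr1 wild-type uteri and Cd79a the largest fall. The mast cell genes Cpa3 and Kit moved in opposite directions, and the neighbouring complement genes C1qb and C1qc moved together; these 4 were added after their values were seen. Each sequence holds the 250 bases before a RefSeq start of the gene in the build GRCm38.p6, on the strand of the gene and 5′ to 3′. For Cpa3 and C1qc this start lay inside the listed span of the gene. Those spans reach to 20242209 and 136892936, so these 2 windows overlap the span, and distances count from the start used. Capitals mark GAGGAA, the core of the site of PU.1, the myeloid transcription factor encoded by Spi1, on either strand.
Itgam, chr7:128062390-128062639, plus strand: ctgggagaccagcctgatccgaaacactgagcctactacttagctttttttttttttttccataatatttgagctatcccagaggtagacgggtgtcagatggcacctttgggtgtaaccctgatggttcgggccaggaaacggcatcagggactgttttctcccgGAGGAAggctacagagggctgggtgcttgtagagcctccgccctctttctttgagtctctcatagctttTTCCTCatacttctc
Cd79a, chr7:24897247-24897496, plus strand: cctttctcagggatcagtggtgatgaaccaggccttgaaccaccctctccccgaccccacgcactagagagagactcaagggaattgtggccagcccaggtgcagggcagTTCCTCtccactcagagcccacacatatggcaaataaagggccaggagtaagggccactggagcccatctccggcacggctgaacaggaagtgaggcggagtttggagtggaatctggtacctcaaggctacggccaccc
Cpa3, chr3:20242182-20242431, minus strand: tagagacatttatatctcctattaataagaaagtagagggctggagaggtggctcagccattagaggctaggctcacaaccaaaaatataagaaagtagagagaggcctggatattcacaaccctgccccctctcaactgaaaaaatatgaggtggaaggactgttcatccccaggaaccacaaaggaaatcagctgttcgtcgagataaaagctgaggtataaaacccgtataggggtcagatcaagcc
Kit, chr5:75574737-75574986, plus strand: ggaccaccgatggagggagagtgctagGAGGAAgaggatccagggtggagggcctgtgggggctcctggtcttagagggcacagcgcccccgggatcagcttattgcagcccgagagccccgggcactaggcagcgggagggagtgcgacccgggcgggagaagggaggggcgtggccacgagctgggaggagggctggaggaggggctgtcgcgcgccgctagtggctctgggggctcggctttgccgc
C1qb, chr4:136886201-136886450, minus strand: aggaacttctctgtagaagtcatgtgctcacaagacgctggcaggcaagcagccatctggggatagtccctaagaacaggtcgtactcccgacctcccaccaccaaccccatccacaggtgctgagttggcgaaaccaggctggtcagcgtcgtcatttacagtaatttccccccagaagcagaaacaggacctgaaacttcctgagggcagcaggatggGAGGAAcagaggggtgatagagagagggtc
C1qc, chr4:136892915-136893164, minus strand: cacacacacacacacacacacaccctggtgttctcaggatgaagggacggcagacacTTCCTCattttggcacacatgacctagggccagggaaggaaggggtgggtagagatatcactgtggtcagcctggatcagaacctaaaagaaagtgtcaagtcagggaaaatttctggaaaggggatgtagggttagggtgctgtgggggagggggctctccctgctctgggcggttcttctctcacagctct
The Itgam window held the motif 84 bases before the start on the strand of the gene and 15 bases before it on the opposite strand. C1qb held it 30 bases before the start, Cd79a 140 bases before it and C1qc 193 bases before it, and Kit 223 bases before the start of 1 of its 2 listed windows. The Cpa3 window held none. Of the 32 tested members, 23 had a RefSeq window, and 14 of these 23 (60.9%) held GAGGAA on either strand, against 7639 of all 32851 windows (23.3%). The forkhead motif TGTTTAC, searched on both strands, was in 0 of the 23 windows and in 1040 (3.17%) of all windows. The estrogen response element, searched as GGTCA and TGACC separated by any 3 bases, was in 0 of the 23 and in 21 (0.0639%) of all windows. These matches describe letters in the windows and were not tested.

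Levels are given as log2 of the deposited intensity minus the 75th percentile of the array, so that a level of 0 equals that percentile. Apart from sums and means over lists, they were not compared between genes. The 75th percentile lay between 697 and 1787 on 30 arrays. The exceptions were Foxa2 wild type after DES, replicate 1 (9024), and Esr1 wild type after vehicle, replicate 4 (551). In comparisons that hold such an array, values without it are given where it changes a call or moves a called change by over 1.5 times. Leaving out both also moved counts in comparisons that hold neither, and these counts are given at the end. On this vehicle array, Xist, a noncoding RNA that silences an X chromosome in females, read -2.35 against 1.62 to 4.02 on the other 31 arrays, and all 4 Xist probes were lowest there. None of 6 probes of the Y-linked genes Eif2s3y, Kdm5d and Uty lay above the 30th percentile on it. Among the other 31 arrays, Eif2s3y and Kdm5d each lay above it on 4, and the Uty probes on 0 to 7. The part of the vehicle array's difference in other results was not tested beyond leaving it out. In the Foxa2 and Foxo1 lines, arrays of different groups deviated from their group means with a median correlation of 0.165 where both were of replicates 1-2 or both of replicates 3-4 (48 pairs), and of -0.159 otherwise (48 pairs); the labels name no batch. Under DES, Esr1 was lower in every Esr1 cKO array (0.09 to 0.46) than in every wild-type array (2.12 to 2.35), whereas the vehicle groups overlapped (2.43 to 2.82 against 2.65 to 4.43). Foxa2 ran from -0.29 to 0.36 in its cKO and from 1.47 to 3.58 in its wild type, and Foxo1 from 1.12 to 1.33 and 3.68 to 4.06. Changes are differences of mean levels ± SE from limma, adjusted by Benjamini-Hochberg over all genes tested, and a gene is said to rise, fall or change only at an adjusted p under 0.05. The plot of group means by gene shows all tested members in the 8 groups.

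**Figure D1:**
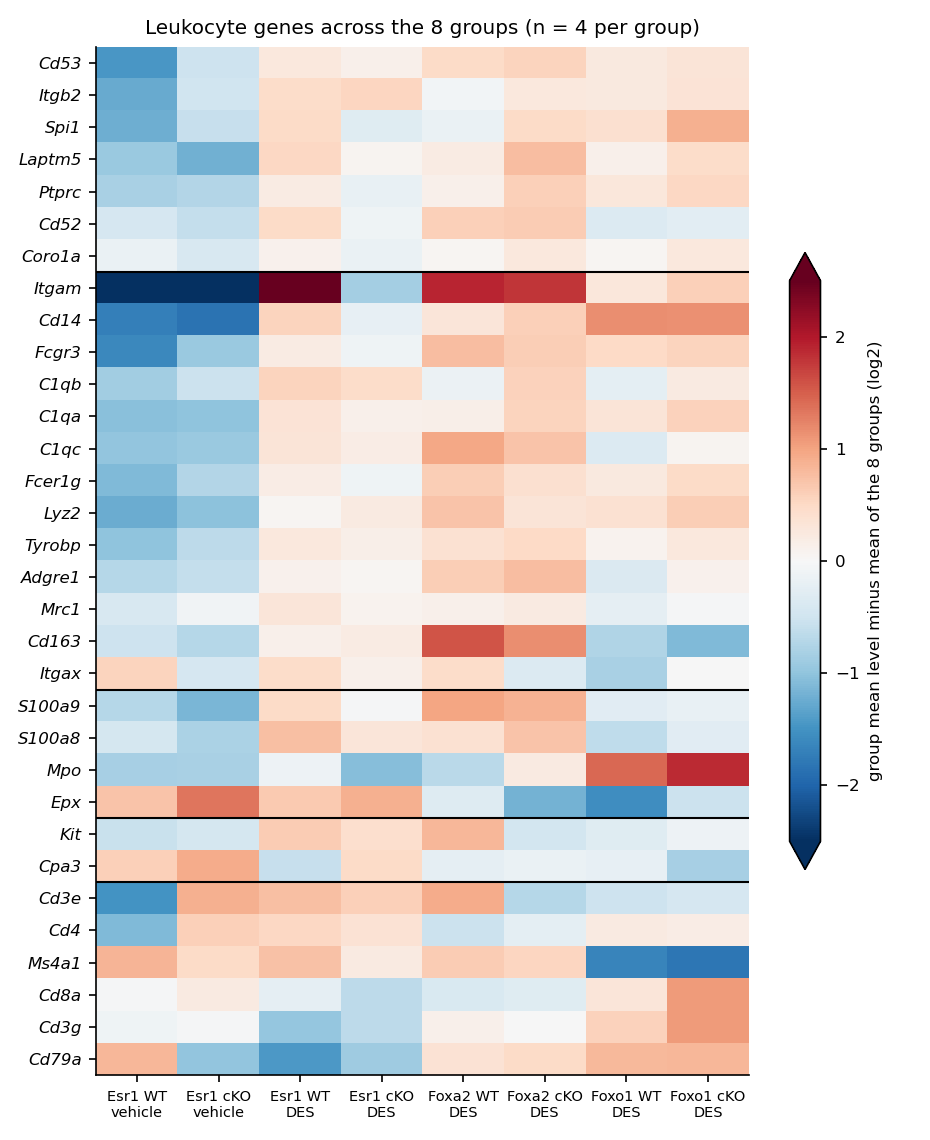
Group means of the 32 tested members (rows, ordered by lineage and by change with DES) in the 8 groups (columns, 4 arrays each), as log2 difference from the mean of the 8 groups. Itgam ran from a mean of -4.42 in vehicle-treated Esr1 wild type to 2.08 after DES, the widest contrast drawn.

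DES raised most pan-leukocyte and macrophage genes of Esr1 wild-type uteri. Of the 32 members, 21 rose, 3 fell and 8 were not called, while 21.5% of all 17145 genes tested were higher and 30.3% lower. The median change of the members was 1.20, against a median of -0.16 over all genes. In 21 of the 24 called members the 4 DES arrays did not overlap the 4 vehicle arrays, as in 85.6% of the 8876 called among all genes, and 44.3% of all genes tested were called without overlap. Spi1, Cd52 and Cd163 were called with overlapping arrays.

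Of the 7 pan-leukocyte genes, 6 rose with DES in wild-type uteri. Cd53, a tetraspanin of the leukocyte surface, stood at -3.84, -4.01, -4.10 and -6.18 in the vehicle arrays and at -2.94, -2.75, -2.56 and -2.99 in the DES arrays, a change of 1.72 ± 0.32 (SE, adjusted p = 6.86e-05). Itgb2, the beta 2 integrin chain shared by the leukocyte adhesion receptors, went from -2.80, -3.30, -2.81 and -3.78 to -1.49, -1.48, -1.14 and -1.72, a change of 1.71 ± 0.22 (SE, adjusted p = 2.41e-07). All 4 DES arrays lay above all 4 vehicle arrays for both genes, and replicate 4 was the lowest vehicle array for each. Laptm5, a lysosomal membrane protein of blood cells, went from -2.89, -2.88, -3.00 and -1.84 to -0.94, -1.25, -1.23 and -1.43, a change of 1.44 ± 0.25 (SE, adjusted p = 2.34e-05). Ptprc, which encodes the leukocyte phosphatase CD45, went from -2.60, -2.39, -2.45 and -2.44 to -1.62, -1.45, -1.14 and -1.61, a change of 1.01 ± 0.33 (SE, adjusted p = 0.0121). Neither gene overlapped between the groups, and all 11 probes of Ptprc were higher, by 0.90 to 1.22. Spi1 went from -6.58, -7.09, -5.18 and -8.01 to -5.12, -4.69, -5.08 and -5.19, a change of 1.70 ± 0.41 (SE, adjusted p = 0.00113), with vehicle replicate 3 inside the range of the DES arrays. Only 1 of the 4 vehicle arrays lay above its 30th percentile for Spi1, so the size of its change rests on signals near background. The change of Spi1 was not called when 16 was added to each intensity (0.65, adjusted p = 0.0724). Cd52, a small glycoprotein of leukocyte membranes, rose by 0.90 ± 0.23 (SE, adjusted p = 0.00176). Coro1a, an actin-binding protein of leukocytes, had a mean level of 0.60 in vehicle and 0.86 in DES arrays and was not called (0.26 ± 0.21 (SE, adjusted p = 0.314)). Without vehicle replicate 4, which read 1.59, it was called higher (0.59, adjusted p = 0.002).

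Macrophage and myeloid genes rose in 12 of 13 cases in wild-type uteri. Itgam, which encodes the alpha M chain that pairs with Itgb2 in the complement receptor CD11b/CD18, stood at -4.32, -4.58, -4.19 and -4.60 in the vehicle arrays and at 2.11, 2.17, 2.07 and 1.96 in the DES arrays. Every DES array was thus more than 6 log2 units above every vehicle array, and the change was 6.50 ± 0.46 (SE, adjusted p = 3.69e-12), a 90.6-fold rise. The second Itgam probe was higher by 4.29. Itgb2, its partner, rose by 1.71 in the same arrays, and the other partner chain measured, Itgax (CD11c), did not pass the test (-0.11 ± 0.85 (SE, adjusted p = 0.925)). Cd14, a co-receptor for bacterial lipopolysaccharide, went from 0.28, 0.47, 0.56 and 0.41 to 3.04, 3.18, 2.34 and 2.26, a change of 2.28 ± 0.21 (SE, adjusted p = 5.55e-10). Fcgr3, a receptor for immunoglobulin G, went from -1.34, -1.10, -0.99 and -2.49 to 0.23, 0.68, 0.30 and 0.15, a change of 1.82 ± 0.25 (SE, adjusted p = 8.08e-07). The arrays of both genes separated completely, with vehicle replicate 4 the lowest for Fcgr3.

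The 3 chains of complement C1q rose by similar amounts. C1qb went from -1.04, -0.94, -0.95 and -1.16 to 0.30, 0.45, 0.69 and 0.11, a change of 1.41 ± 0.31 (SE, adjusted p = 0.000458). C1qa rose by 1.39 ± 0.20 (SE, adjusted p = 2.14e-06) and C1qc by 1.30 ± 0.26 (SE, adjusted p = 0.000119). Adgre1, which encodes an adhesion receptor that marks mouse macrophages, went from -0.78, -0.45, -0.41 and -0.27 to 0.19, 0.28, 0.83 and 0.03, a change of 0.81 ± 0.20 (SE, adjusted p = 0.00156). No array of these 4 genes overlapped between vehicle and DES. The signalling adaptors Fcer1g and Tyrobp, which couple receptors of myeloid cells to kinases, rose by 1.28 ± 0.21 and 1.27 ± 0.17, and Lyz2, the lysozyme of myeloid cells, by 1.27 ± 0.29. The scavenger receptors Mrc1 (mannose receptor) and Cd163 rose least, by 0.71 ± 0.21 (SE, adjusted p = 0.00586) and 0.65 ± 0.27 (SE, adjusted p = 0.0424). The call of Cd163 held under 10 of 19 alternative settings, and its change ran from 0.43 to 0.91 over them.

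**Figure D2:**
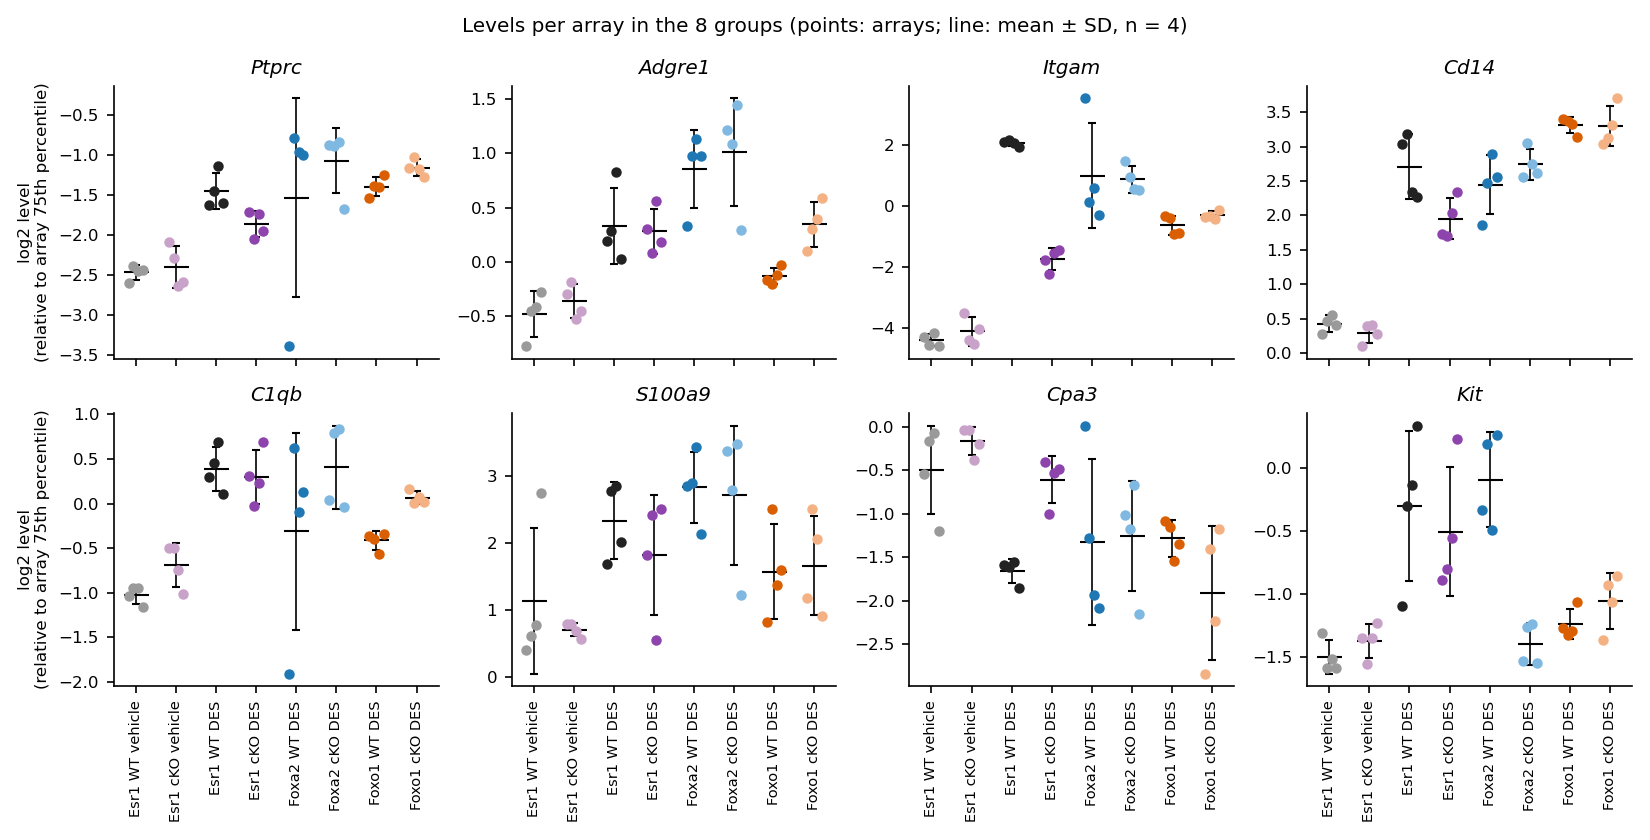
Levels per array (log2 relative to the array's 75th percentile) of 8 members in the 8 groups, with points for the 4 arrays of a group and lines for the mean ± SD. In Itgam the DES-treated Esr1 cKO arrays (-2.24 to -1.43) lie between the vehicle arrays and the DES-treated wild-type arrays, and in Kit the Foxa2 cKO arrays (-1.55 to -1.24) lie below all 4 Foxa2 wild-type arrays (-0.50 to 0.26).

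No granulocyte gene was called with DES in wild-type uteri, and 2 of the 4 had an unadjusted limma p under 0.05. S100a9, which with S100a8 forms the calprotectin of neutrophils, stood at 0.40, 0.61, 0.77 and 2.74 in the vehicle arrays and at 1.68, 2.78, 2.84 and 2.01 in the DES arrays. Vehicle replicate 4 was among the highest of the 8 arrays, while the other 3 vehicle arrays lay below every DES array. The change of S100a9 was 1.20 ± 0.52 (SE, adjusted p = 0.0548) and that of S100a8 was 1.19 ± 0.54 (SE, adjusted p = 0.0656). Without vehicle replicate 4, the adjusted p was 0.00526 for S100a9 and 0.0274 for S100a8. Mpo, the myeloperoxidase of neutrophil granules, and Epx, the peroxidase of eosinophil granules, had changes of 0.71 ± 0.45 and -0.05 ± 0.65. Beside the counts of other genes that follow, 21.5% of all genes tested rose and 30.3% fell in this comparison. The other neutrophil genes examined were 10, of which 3 rose and 1 fell; Fpr2, a receptor for formylated peptides, was called higher with all vehicle arrays under the 30th percentile, and Retnlg, a secreted protein of neutrophils, rose by 1.70 ± 0.49 (SE, adjusted p = 0.00517), while Mmp9, a gelatinase that other cells also make, fell (-1.44 ± 0.33 (SE, adjusted p = 0.000621)). Csf3, the growth factor of granulocytes (G-CSF), ran from -6.02 to -5.86 in vehicle arrays to -1.19 to -0.60 in DES arrays (adjusted p = 1.39e-15). Only 1 of its 4 vehicle arrays lay above the 30th percentile, so the size of this rise is not given. Of 4 other eosinophil genes, Alox15, a lipoxygenase, rose by 3.40 ± 0.36 (SE, adjusted p = 9.98e-09), the interleukin receptor chain Il5ra was called higher with all vehicle arrays under the 30th percentile, and the chemokine receptor Ccr3 fell (-1.38 ± 0.43 (SE, adjusted p = 0.00845)).

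The mast cell genes moved in opposite directions with DES in wild-type uteri. Cpa3, the carboxypeptidase stored in mast cell granules, stood at -0.54, -0.16, -0.08 and -1.20 in the vehicle arrays and at -1.59, -1.61, -1.55 and -1.86 in the DES arrays, a change of -1.16 ± 0.37 (SE, adjusted p = 0.00965). Kit, the receptor of stem cell factor, stood at -1.31, -1.59, -1.52 and -1.58 and -1.09, -0.30, -0.14 and 0.33, a change of 1.20 ± 0.23 (SE, adjusted p = 0.000102). All 10 Kit probes were higher, by 1.08 to 1.27. Neither gene overlapped between the groups. Kit is also known from germ cells, pigment cells, interstitial cells of smooth muscle and some epithelia, so that its level is not specific to mast cells. Of 7 other mast cell genes measured, 5 fell and none rose, while 30.3% of all genes tested fell and 21.5% rose. The chymase Mcpt4 fell by 2.64 ± 0.27 (SE, adjusted p = 3.98e-09), with levels from -0.95 to -0.15 in vehicle arrays and from -3.54 to -2.96 in DES arrays. Hdc, the enzyme that makes histamine, changed by -1.81 ± 0.43 (SE, adjusted p = 0.000885), and the chymase Cma1 by -1.53 ± 0.26 (SE, adjusted p = 2.36e-05). Kitl, which encodes the ligand of Kit, fell as well (-0.72 ± 0.30 (SE, adjusted p = 0.0449)). The summed level of the 7 genes was 17.87 to 37.28 times the array's 75th percentile in vehicle arrays and 8.123 to 8.975 times in DES arrays, without overlap.

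**Figure D3:**
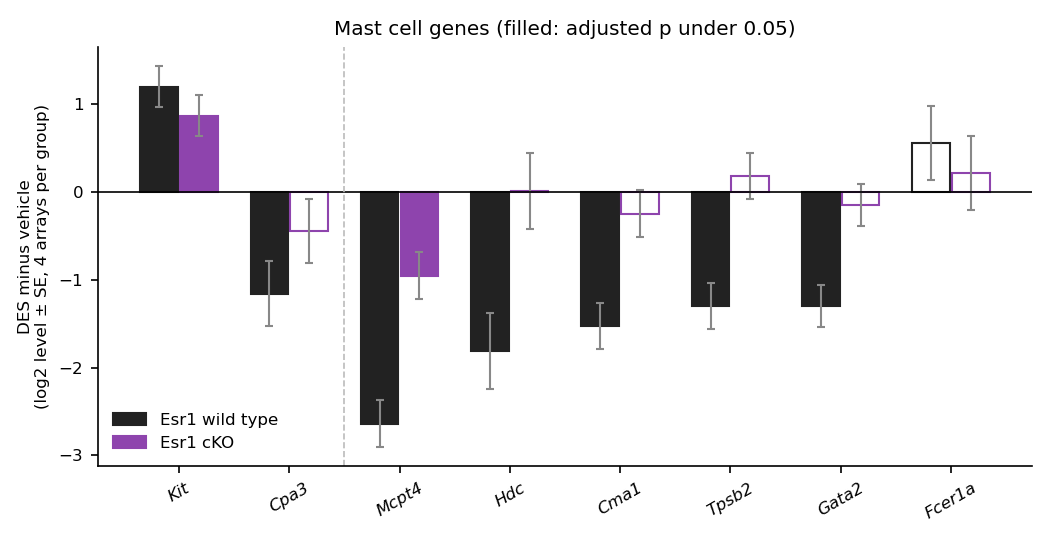
Change with DES (log2, bars, with SE as lines, 4 arrays per group) in Esr1 wild-type and Esr1 cKO uteri for Kit and Cpa3 (left of the dashed line) and for the other mast cell genes measured in all 4 groups; filled bars have an adjusted p under 0.05. Kit rose in both genotypes (1.20 and 0.87), while Cpa3, Mcpt4, Cma1, Tpsb2, Hdc and Gata2 fell in wild type.

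Lymphocyte genes showed no common direction with DES in wild-type uteri, with 2 called higher, 2 lower and 2 not called among 6. Cd3e, a signalling chain of the T cell receptor, stood at -5.05, -5.31, -4.99 and -5.03 in the vehicle arrays and at -2.89, -2.77, -2.87 and -2.86 in the DES arrays (2.25 ± 0.92 (SE, adjusted p = 0.0421)). Cd4, the co-receptor of helper T cells, went from -4.26, -5.34, -6.37 and -5.21 to -3.65, -3.77, -3.75 and -3.49 (1.63 ± 0.36 (SE, adjusted p = 0.000371)). Both were separated between the groups. Cd3g, another chain of the same receptor complex as Cd3e, went the other way, from -4.42, -4.49, -4.69 and -5.00 to -5.39, -5.20, -5.60 and -5.82 (-0.85 ± 0.35 (SE, adjusted p = 0.0436)). Cd79a, a signalling chain of the B cell receptor, went from -4.80, -4.98, -4.59 and -4.60 to -6.43, -7.29, -6.21 and -8.08 (-2.26 ± 0.58 (SE, adjusted p = 0.00198)). The 30th percentile of these arrays lay at -6.00 to -5.76 in vehicle and -6.45 to -6.36 in DES, so that Cd79a was near or below it in the DES arrays. The calls of Cd3e and Cd3g each held under 9 of 19 alternative settings, and that of Cd3e was lost without any 1 of the 8 arrays (vehicle replicate 4: 2.27, adjusted p = 0.066). The SE of Cd3e comes from a fit that shares its spread over all 8 groups. The SD of Cd3e was 0.15 in vehicle and 0.05 in DES arrays of Esr1 wild type. It was 3.85 in DES-treated Foxa2 wild type, where replicate 1 read 3.09, so the large SE does not describe the Esr1 arrays. Cd8a and Ms4a1, markers of cytotoxic T cells and of B cells, were not called (-0.20 ± 0.44 and -0.12 ± 0.51).

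The direction of the dim lymphocyte genes depended on the probe. All 6 Cd4 probes in rows up to 22500 of the deposited table had lower means with DES, with differences of -2.43 to -1.53, and 4 of 5 in later rows had higher means, over a range of -0.46 to 2.27. Cd8a showed the same division, with 4 of 4 probes lower in the first rows (-2.84 to -1.86) and 4 of 5 higher in the later rows (-0.20 to 1.67). The mean of all Cd4 probes changed by -0.58, so the direction of Cd4 was not settled. All probes of the brighter genes Ptprc (5 and 6 probes) and Kit (5 and 5) were higher with DES in both parts. Deviations of 7829 dim probes from their means over all arrays were taken as the median per array, averaged over the 4 arrays of a group. In vehicle-treated wild-type arrays the deviation was 0.36 in the first rows and -0.29 in the later rows. It was -0.61 and -0.17 in DES-treated wild-type arrays, and -0.33 and 0.08 in vehicle-treated cKO arrays. For 6498 brighter probes it was 0.07 and 0.06 in vehicle-treated wild-type arrays, and -0.01 in both parts in DES-treated wild-type arrays. With this row pattern subtracted, Cd3e (2.05, adjusted p = 0.0614) and Cd3g (-0.46, adjusted p = 0.321) were not called, and Cd79a (-1.69, adjusted p = 0.0125) and Cd4 (0.95, adjusted p = 0.0287) were. The source of the row pattern was not tested.

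**Figure D4:**
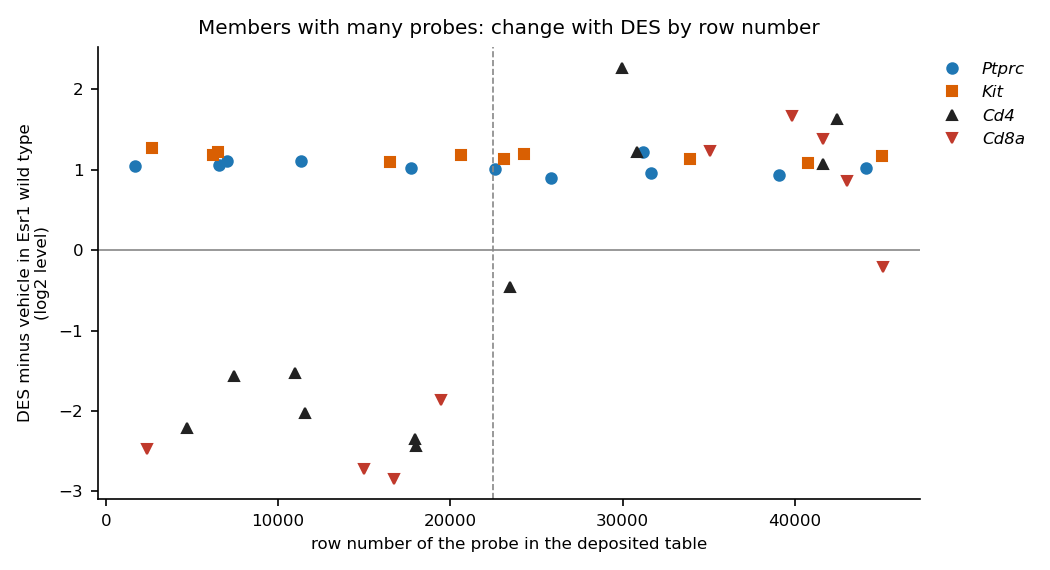
Change with DES in Esr1 wild-type uteri (log2, vertical axis) of each probe of Ptprc, Kit, Cd4 and Cd8a against its row number in the deposited table (horizontal axis; dashed line at row 22500). Ptprc and Kit probes lay above 0 throughout, whereas Cd4 and Cd8a probes lay below 0 left of the line and 4 of 5 of each above 0 right of it.

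In Esr1 cKO uteri, DES raised 13 members and lowered 0, while 6.39% of all 17145 genes tested were higher and 2.58% lower. Of the 32 members, 16 had an unadjusted limma p under 0.05. The 13 that rose were 10 of 13 macrophage and myeloid genes, 2 of 7 pan-leukocyte genes and Kit, and all 13 were also called higher in wild type, in arrays not shared with this comparison. Itgam stood at -3.51, -4.42, -4.55 and -4.05 in vehicle-treated and -1.79, -2.24, -1.55 and -1.43 in DES-treated cKO arrays, a change of 2.38 ± 0.46 (SE, adjusted p = 0.000672) or 5.2-fold. Cd14 went from 0.10, 0.40, 0.41 and 0.28 to 1.73, 1.70, 2.04 and 2.33 (1.65 ± 0.21 (SE, adjusted p = 1.55e-06)). All DES arrays of the cKO lay above the vehicle arrays for both genes. Laptm5 rose by 1.27 ± 0.25, Lyz2 by 1.26 ± 0.29, C1qa by 1.13 ± 0.20, C1qc by 1.11 ± 0.26, Itgb2 by 1.03 ± 0.22, C1qb by 0.99 ± 0.31, Cd163 by 0.92 ± 0.27, Fcgr3 by 0.81 ± 0.25, Tyrobp by 0.79 ± 0.17 and Adgre1 by 0.64 ± 0.20. Of these, C1qb held its call under 10, Adgre1 under 11, Fcgr3 under 12 and Cd163 under 15 of 19 alternatives, and the calls of C1qb and Adgre1 held in 1 and that of Fcgr3 in 2 of 8 fits that left out 1 array. Kit went from -1.35, -1.56, -1.35 and -1.23 to -0.89, -0.81, -0.56 and 0.23 (0.87 ± 0.23 (SE, adjusted p = 0.0149)). None of the 4 granulocyte genes was called (1 with an unadjusted limma p under 0.05; the largest change was 1.12 ± 0.52 in S100a9), and none of the 6 lymphocyte genes was called (0 with an unadjusted limma p under 0.05; the largest change was -0.88 ± 0.44 in Cd8a). Cpa3 stood at -0.04, -0.04, -0.38 and -0.20 and -0.40, -1.01, -0.53 and -0.49 (-0.44 ± 0.37 (SE, adjusted p = 0.611)), so that the groups did not overlap but the change was not called.

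**Figure D5:**
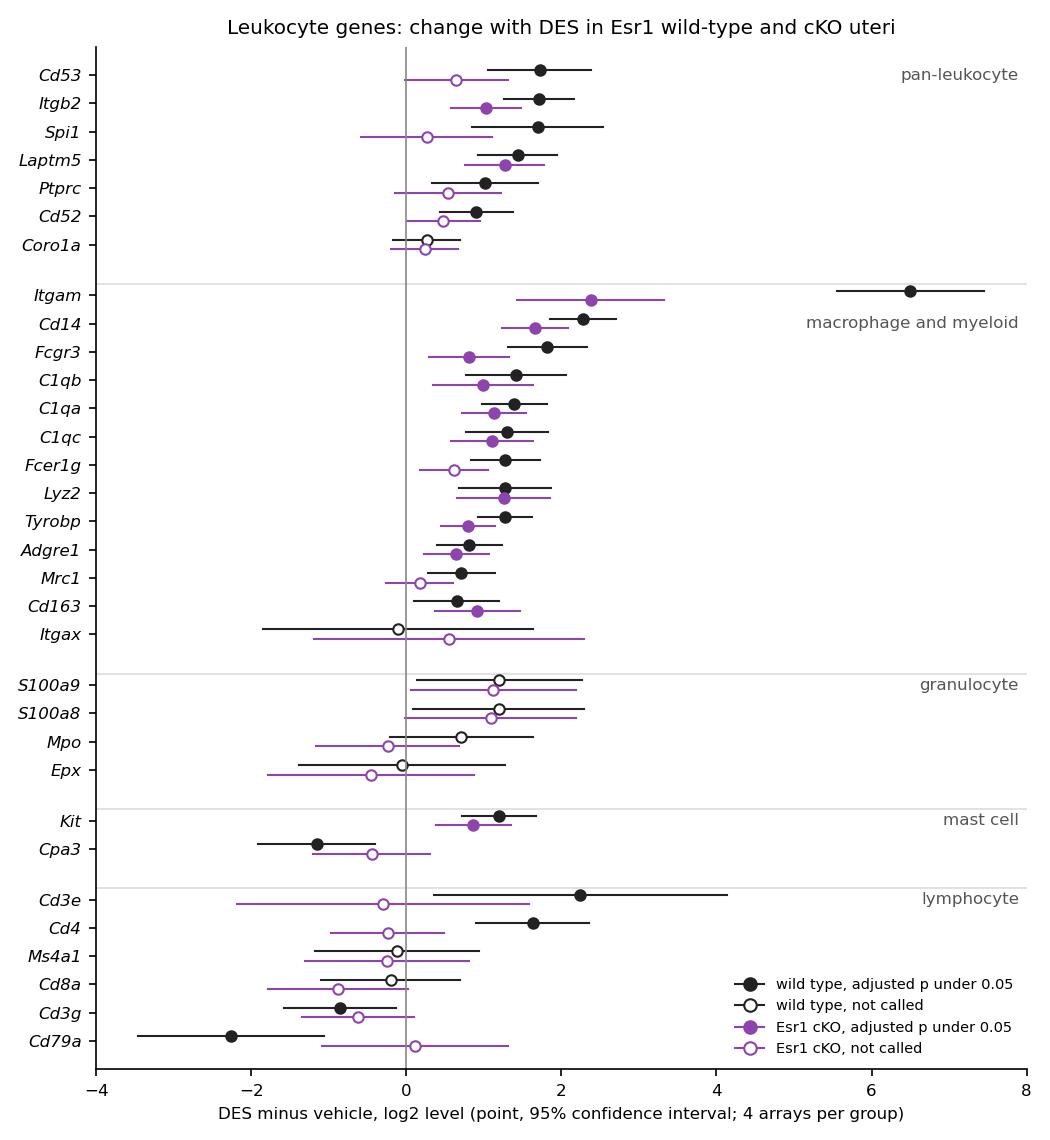
Change with DES (log2, horizontal axis, with 95% confidence intervals) of each tested member in Esr1 wild-type (black) and Esr1 cKO uteri (purple), 4 arrays per group, ordered by lineage; filled points have an adjusted p under 0.05. Most wild-type and cKO intervals overlap, and Itgam stands apart at 6.50 in wild type and 2.38 in cKO.

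The response to DES differed between Esr1 genotypes for 4 members when the difference itself was tested. Of the 32, 1 was called more positive and 3 more negative in the cKO, while over all genes tested 15.4% were higher and 11.9% lower. The fitted difference had a median of -0.41 over the members, all read on the same arrays, against 0.12 over all genes. Itgam responded less in the cKO (-4.12 ± 0.65 (SE, adjusted p = 3.06e-05)), and this call held under all 26 alternatives run, with values from -4.31 to -2.87. Fcgr3 also responded less (-1.01 ± 0.35 (SE, adjusted p = 0.0341)), as did Cd4 (-1.87 ± 0.50 (SE, adjusted p = 0.00643)), whose value was 0.85 with the mean of its probes. Cd79a responded more positively (2.37 ± 0.83 (SE, adjusted p = 0.0333)). With the row pattern subtracted, Cd4 (adjusted p = 0.0749) and Cd79a (adjusted p = 0.0943) were not called. Without vehicle-treated wild-type replicate 4, Fcgr3 (-0.67, adjusted p = 0.0812) and Cd79a (2.33, adjusted p = 0.051) were not called either. The pan-leukocyte genes with the largest differences, Spi1 (-1.43 ± 0.58 (SE, adjusted p = 0.0683)), Cd53 (-1.08 ± 0.46 (SE, adjusted p = 0.0811)) and Itgb2 (-0.68 ± 0.31 (SE, adjusted p = 0.102)), missed the threshold. The split of 1 higher and 3 lower became 0 and 5 with quantile normalization and 1 and 5 with median scaling.

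The Esr1 genotypes were also compared within each treatment, in arrays shared with the comparisons above. After vehicle, 2 members were higher in the cKO and 0 lower, while 2.68% of all 17145 genes tested were higher and 4.79% lower; 7 members had an unadjusted limma p under 0.05. Itgb2 was higher by 0.77 ± 0.22 (SE, adjusted p = 0.0246), with cKO arrays at -2.05, -2.54, -2.65 and -2.35, and held under 11 of 19 alternatives but not without wild-type replicate 4 (0.57, adjusted p = 0.154). Cd4 was higher by 1.70 ± 0.36 (SE, adjusted p = 0.00174) and reversed with the mean of its probes (-0.53). After DES, 1 member was higher in the cKO and 3 lower, while 16.6% of all 17145 genes tested were higher and 13.9% lower. Itgam was lower by a change of -3.83 ± 0.46 (SE, adjusted p = 2.31e-07), without overlap of the arrays. Cd14 (-0.76 ± 0.21 (SE, adjusted p = 0.00599)) and Cd52 (-0.60 ± 0.23 (SE, adjusted p = 0.0495)) were lower as well, and the call of Cd52 was lost under 11 of 19 alternatives. Cpa3 was higher in DES-treated cKO than in DES-treated wild-type uteri (1.05 ± 0.37 (SE, adjusted p = 0.0305)), with the cKO arrays at -1.01 to -0.40 and the wild-type arrays at -1.86 to -1.55, and its call was lost under 7 of 19 alternatives. Median scaling gave 0 higher and 3 lower.

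The genes of the other lists were taken from the same arrays, so their calls are not independent of those of the members. Of 19 other macrophage genes, 13 rose and 0 fell with DES in wild type (median 1.12), and 10 rose in the cKO (median 0.75). Over all genes tested, 21.5% rose in wild type and 6.39% in the cKO. Ctss, a lysosomal protease of antigen-presenting cells, rose by 2.07 ± 0.16 in wild type and 1.12 ± 0.16 in cKO, and the antibody receptors Fcgr1 by 1.99 ± 0.15 and 1.11 ± 0.15 and Fcgr2b by 1.88 ± 0.19 and 1.03 ± 0.19. The response of these 3 genes was smaller in the cKO (Ctss -0.95 ± 0.22 (SE, adjusted p = 0.00188), Fcgr1 -0.88 ± 0.21 (SE, adjusted p = 0.00274), Fcgr2b -0.85 ± 0.27 (SE, adjusted p = 0.0205)). Other mast cell genes went the other way, since 6 of 7 responded more positively in the cKO, including Tpsab1, which was under the 30th percentile on all arrays of several groups. Of all genes tested, 15.4% responded more positively. Mcpt4 differed by 1.68 ± 0.38 (SE, adjusted p = 0.00144) and Hdc by 1.82 ± 0.61 (SE, adjusted p = 0.0264). After DES their summed level was 16.41 to 19.56 in the cKO against 8.123 to 8.975 in wild type, and it was 18.56 to 20.56 in the vehicle-treated cKO. In DES-treated uteri of the Foxa2 and Foxo1 lines it was 7.769 to 17.32, 8.036 to 10.43, 9.421 to 10.1 and 9.326 to 10.3 in Foxa2 wild type, Foxa2 cKO, Foxo1 wild type and Foxo1 cKO. Bright genes weigh most in such a sum. The mean log2 level of the same genes was -2.80 to -2.19, -2.46 to -1.85, -1.59 to -1.40 and -2.08 to -1.55 in that order. In Esr1 wild type it was -1.52 to -1.11 after vehicle and -2.78 to -2.43 after DES. By this mean, DES-treated Foxo1 wild type overlapped vehicle-treated Esr1 wild type.

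Genes of other lymphoid and dendritic cells did not rise as lists. Many of them were dim. With DES in Esr1 wild type, 21.5% of all 17145 genes tested rose and 30.3% fell, and the counts below are to be read against these shares. In Esr1 wild type, the mean level of the other T and NK cell genes had a median of -5.139 in vehicle and -5.615 in DES arrays. The row pattern of dim probes was not subtracted for these lists, so directions of their dim genes carry the limit given for the lymphocyte members. With DES in wild type, 0 of 11 other T and NK cell genes rose and 3 fell, the largest measured fall being that of Zap70, a kinase of the T cell receptor (-1.57 ± 0.29 (SE, adjusted p = 6.11e-05)). Of 8 other B cell genes, 1 rose, the receptor chain Cd79b (1.90 ± 0.27 (SE, adjusted p = 1.44e-06)), and 3 fell, among them Ebf1, a transcription factor also made by stromal cells (-1.61 ± 0.27 (SE, adjusted p = 1.62e-05)). Cd79b and the member Cd79a encode partner chains, and they were called in opposite directions, with Cd79a near or below the 30th percentile in the DES arrays. Of 5 dendritic cell genes, 1 rose and 3 fell, with Flt3, a receptor of dendritic cell progenitors, at -2.04 ± 0.27 (SE, adjusted p = 3.43e-07). Of 9 leukocyte growth factors, 3 rose, including Csf3 and the macrophage growth factor Csf1 (0.43 ± 0.14 (SE, adjusted p = 0.0125)), and 2 fell. In the Esr1 cKO, Csf3 ran from -7.31 to -6.00 to -3.74 to -2.56 (adjusted p = 1.85e-11), with 1 of 4 vehicle arrays above the 30th percentile.

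Markers of other uterine cell types moved in the same comparison, in which 21.5% of all genes tested rose and 30.3% fell. With DES in wild type, 11 of 12 epithelial genes rose and 0 fell, 0 of 10 smooth muscle genes rose and 8 fell, 1 of 10 endothelial genes rose and 6 fell, and 2 of 11 stromal genes rose and 2 fell. The summed epithelial level was 152.7 to 256.6 times the 75th percentile in vehicle arrays and 416.3 to 525.7 in DES arrays of wild type, and 144.8 to 154.9 and 198.1 to 264.4 in the cKO. The smooth muscle sum was 345.4 to 556.5 and 223 to 262.3 in wild type and 308.4 to 334.7 and 288.1 to 322 in the cKO, and the endothelial sum 42.51 to 66.22 and 23.84 to 28.21 in wild type and 44 to 46.22 and 32.95 to 39.25 in the cKO. Of 5 red blood cell genes, 0 rose and 3 fell, with sums of 36.26 to 68.16 and 19.34 to 66.19 that overlapped. Of 6 mesothelial genes 1 rose and 1 fell, of 8 skeletal muscle genes 0 rose and 3 fell, and of 6 adipocyte genes 1 rose and 2 fell. The summed level of the 13 macrophage and myeloid members was 15.82 to 19.17 and 43.65 to 54.84 in wild type, and 16.45 to 21.8 and 29.24 to 53.3 in the cKO. Lyz2 made up much of these sums, with group means of 8.86 and 21.4 in wild type and 10.1 and 24.2 in the cKO. The mean log2 level of the 13 members was -0.96 to -0.77 in vehicle and 0.54 to 0.87 in DES arrays of wild type. In the cKO it was -0.94 to -0.54 and -0.002 to 0.41. The part of the other uterine cell types in the changes of the leukocyte genes was not tested.

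Deletion of Foxa2 under DES lowered Kit, and no other member was called. Of the 32, 0 were higher and 1 lower, while 1.11% of all 17145 genes tested were higher and 1.1% lower; 3 members had an unadjusted limma p under 0.05. Kit stood at -0.33, 0.19, -0.50 and 0.26 in wild-type arrays and at -1.53, -1.26, -1.24 and -1.55 in cKO arrays, so that every cKO array lay below every wild-type array. The change was -1.30 ± 0.23 (SE, adjusted p = 0.00149), and all 10 Kit probes were lower, by -1.46 to -1.27. Within replicates 1 and 2 the difference was -1.32 and within replicates 3 and 4 it was -1.27. In a fit of these 2 groups alone, the adjusted p of Kit was 0.155, and with the replicate number as a block as well it was 0.442. Kit in the Foxa2 cKO overlapped its range in vehicle-treated Esr1 wild-type arrays (-1.59 to -1.31) and in DES-treated Foxo1 wild-type arrays (-1.32 to -1.06), which belong to other lines. Cpa3 did not follow Kit (0.07 ± 0.37 (SE, adjusted p = 0.928)), and of the 7 other mast cell genes 0 were called by limma and 1 had an unadjusted p under 0.05. The largest other fitted changes per lineage were 0.64 ± 0.41 in Spi1, -0.81 ± 0.85 in Itgax, 0.91 ± 0.45 in Mpo and -1.64 ± 0.92 in Cd3e, none of them called. Without wild-type replicate 1, the change of Itgax was 0.70, that of Mpo 0.26 and that of Cd3e 0.28. Of the other lists, 0 of 12 epithelial genes and 1 of 10 endothelial genes were called, Vwf, the von Willebrand factor (1.04 ± 0.19 (SE, adjusted p = 0.0019)).

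The array with the high 75th percentile, replicate 1 of Foxa2 wild type after DES, stood apart in several members. It read 3.55 for Itgam, where the other 3 arrays read -0.28 to 0.60, and 3.09 for Cd3e, where they read -4.72 to -4.51. For Ptprc it read -3.40, against -0.996 to -0.78. For Kit it read -0.33, inside the range of the other 3. Without this array, the difference of Kit between the Foxa2 genotypes was -1.38 (adjusted p = 0.00171).

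Deletion of Foxo1 under DES gave no call among the members. Of the 32, 0 were higher and 0 lower by limma, 1 had an unadjusted p under 0.05, and every adjusted p was 1, while 0.181% of all 17145 genes tested were higher and 0.0408% lower. The fitted change was above 0 in 27 of 32 members, with a median of 0.23 against 0.05 over all genes. Adgre1 went from -0.17, -0.20, -0.12 and -0.03 in wild-type to 0.10, 0.30, 0.39 and 0.59 in cKO arrays (0.48 ± 0.20 (SE, adjusted p = 1)), without overlap. The largest fitted changes of the other lineages were 0.48 ± 0.41 in Spi1, 0.81 ± 0.85 in Itgax, -0.63 ± 0.37 in Cpa3 and 0.75 ± 0.44 in Cd8a, and among measured granulocyte genes 0.42 ± 0.45 in Mpo. Epx was under the 30th percentile on all 4 wild-type arrays, so no change is given. Kit did not pass the test (0.18 ± 0.23 (SE, adjusted p = 1)). Same-numbered wild-type and cKO arrays of this line deviated together, with correlations of 0.29 to 0.381 over the 4 pairs. With the replicate number as a block in a fit of the compared groups alone, 7 genes were called. The fit of all 8 groups called 38, and members called were 0 in each fit. Of the epithelial genes, 1 of 12 was called, Cdh1, the adhesion protein E-cadherin (2.24 ± 0.38 (SE, adjusted p = 0.00295)).

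The wild-type DES groups of the 3 lines were compared pairwise, and these 3 comparisons share arrays with each other and with those above. The line cannot be told apart from the set of arrays, whose 30th percentile lay at -6.45 to -6.36 in the Esr1 line, -5.99 to -4.75 in the Foxa2 line and -5.58 to -5.02 in the Foxo1 line. Against the Esr1 line, 5 members were higher and 1 lower in the Foxa2 line, while 24.8% of all 17145 genes tested were higher and 10.5% lower. Cd163 (1.46 ± 0.27 (SE, adjusted p = 0.00015)), C1qc (0.66 ± 0.26), Adgre1 (0.52 ± 0.20), Cd79a (1.79 ± 0.58) and Cd3g (1.09 ± 0.35) were higher, and Cd4 was lower (-1.06 ± 0.36). Without Foxa2 wild-type replicate 1, C1qc (0.27, adjusted p = 0.265) and Cd4 (-0.56, adjusted p = 0.125) were not called, Ptprc was called higher (0.54, adjusted p = 0.012), and Itgam (-1.93, adjusted p = 1.41e-06), Itgax (-1.51, adjusted p = 0.0195) and Cd3e (-1.76, adjusted p = 5.32e-10) were called lower. The split became 1 higher and 4 lower with quantile normalization and 3 and 3 with median scaling.

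In the Foxo1 line, 4 members were higher and 10 lower than in the Esr1 line, while 24.9% of all 17145 genes tested were higher and 10.2% lower. Itgam was lower by a change of -2.71 ± 0.46 (SE, adjusted p = 3.98e-05), with Foxo1 wild-type arrays at -0.34, -0.39, -0.93 and -0.88 and no overlap. The others lower were Kit (-0.94 ± 0.23), S100a8 (-1.38 ± 0.54), Cd163 (-0.88 ± 0.27), Cd52 (-0.84 ± 0.23), C1qb (-0.80 ± 0.31), C1qc (-0.66 ± 0.26) and Mrc1 (-0.53 ± 0.21), with Ms4a1 and Epx under the 30th percentile on all 4 Foxo1 wild-type arrays. Those higher were Cd79a (2.24 ± 0.58), Mpo (1.56 ± 0.45), Cd3g (1.55 ± 0.35) and Cd14 (0.60 ± 0.21). The limits given above for Cd79a and Cd3g against the Esr1 line hold here as well. Quantile normalization gave 2 higher and 10 lower, and median scaling 3 and 11. Against the Foxa2 line, 2 members were higher and 7 lower in the Foxo1 line, while 8.51% of all 17145 genes tested were higher and 8.01% lower. Mpo stood at -4.93, -2.23, -2.19 and -2.58 in the Foxa2 and at -1.30, -1.27, -0.93 and 0.06 in the Foxo1 wild type (2.12 ± 0.45 (SE, adjusted p = 0.00166)), and Cd14 was higher as well (0.86 ± 0.21). The second Mpo probe had DES-treated wild-type means of -3.23 in the Esr1, -4.14 in the Foxa2 and -4.41 in the Foxo1 line. The direction of Mpo in both comparisons of the Foxo1 line thus depended on the probe. Cd163 was lower (-2.33 ± 0.27 (SE, adjusted p = 4.09e-07)), as were Itgam (-1.64 ± 0.46), C1qc (-1.32 ± 0.26), Kit (-1.14 ± 0.23), Adgre1 (-0.98 ± 0.20) and Cd52 (-0.95 ± 0.23), and Ms4a1 was called lower with its Foxo1 arrays under the 30th percentile. Cd163 ordered the 3 wild-type groups as Foxa2 (-1.06 to -0.15), Esr1 (-2.47 to -1.44) and Foxo1 (-3.29 to -2.44), with only the last pair overlapping. Without Foxa2 wild-type replicate 1, the difference of Itgam between the Foxo1 and Foxa2 lines was -0.79 (adjusted p = 0.0339) and that of Mpo 1.47 (adjusted p = 0.00629), and C1qb was called lower (-0.63, adjusted p = 0.0376) and Cd3e higher (0.48, adjusted p = 0.0151).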

How the data were processed

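Uterine RNA from CD-1 females of postnatal day 5 was hybridized to 32 single-colour Agilent arrays, 4 in each of 8 groups, which the sample labels define. The authors deposited an intensity for each of 45018 probes per array. The submitters' processing notes name Agilent Feature Extraction 12, and the sources used here do not state a background correction or normalization. Symbols came from the platform annotation, brought up to date through gene IDs. Of the probes, 33653 carried 1 symbol, 56 several and 11309 none.

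The level is log2 of the intensity less log2 of the array's own 75th percentile. Probes above the 30th percentile of their array on at least 4 arrays were kept, and each gene was read from its kept probe with the highest mean. A limma model (version 3.58.1, R 4.3.3) held the means of all 8 groups and left 24 residual degrees of freedom, and p-values were adjusted by Benjamini-Hochberg over 17145 genes within each of 10 comparisons. All comparisons share the same estimate of spread for a gene. An array that stands apart in any group therefore widens the SE of that gene in every comparison. A gene whose 4 arrays in a group were all under the 30th percentile has only a bound there, and such changes are not given as values. The number of arrays limits the precision. Nothing says that replicates came from separate litters, and if they did not, p-values measure the spread between these samples only. The fit was tested on simulated data.

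The 37 members, the other lists and the tests were chosen with earlier results of these data known. Every tested member is named. Members given array by array are, per lineage, the called ones with the largest change (up to 4 with DES in Esr1 wild type, 3 per Fox deletion) with Ptprc, Adgre1, Cpa3 and Cd3e, and those of other lists are up to 3 called genes with the largest change, or genes with a role stated beside them. S100a9, C1qb, Laptm5, Csf1, Csf3, Kitl, Cd79b, Ebf1, Flt3, Zap70, Cdh1 and Vwf were in part chosen after their values were seen. Replicate numbers were checked as pairs, and same-numbered arrays correlated above 0.1 in all 4 pairs in the Foxo1 line only. Promoter windows are from RefSeq, and windows lying on opposite strands over the same bases matched as reverse complements in 1839 of 1839 cases. Alternatives were quantile and median scaling, adding 16, no probe filter, the mean of probes, array weights, only the compared groups, a replicate block and leaving out arrays. The row-number adjustment, the term for replicates 1-2 against 3-4 and the block in the compared groups alone were chosen after seeing the data.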

Additional observations from a re-analysis of the deposited data

Results flagged for a closer look

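In 27 of 256 sets of 4 arrays (32 members in 8 groups), or 10.5%, the highest or lowest array stood farther from the other 3 than Dixon's 95% limit allows, where chance alone gives about 5%. On replicate 1 of DES-treated Foxa2 wild type, Ptprc read -3.40 against -0.996 to -0.78 on the other 3 arrays, Laptm5 -2.33 against -1.33 to -1.19, Itgax 0.10 against -6.05 to -5.72, C1qc 3.73 against 2.06 to 2.23, Mpo -4.93 against -2.58 to -2.19 and Cd3e 3.09 against -4.72 to -4.51. In vehicle-treated Esr1 wild type, replicate 4 was apart: Laptm5 read -1.84 against -3.00 to -2.88 on the other 3 arrays, Cd53 -6.18 against -4.10 to -3.84, Coro1a 1.59 against 0.18 to 0.33 and S100a9 2.74 against 0.40 to 0.77. On replicate 4 of DES-treated Foxa2 cKO, Ptprc read -1.68 against -0.88 to -0.84 on the other 3 arrays, Cd53 -3.24 against -2.37 to -2.20 and Coro1a 0.60 against 1.10 to 1.19. In DES-treated Foxo1 cKO, replicate 1 was apart: Coro1a read 1.24 against 0.92 to 0.97 on the other 3 arrays and Tyrobp 1.10 against 1.51 to 1.56. On replicate 4 of DES-treated Esr1 cKO, Itgax read -5.05 against -4.70 to -4.67 on the other 3 arrays and Fcer1g 0.86 against 0.42 to 0.45. In DES-treated Foxa2 cKO, replicate 3 was apart: Itgb2 read -1.13 against -1.86 to -1.75 on the other 3 arrays. On replicate 2 of DES-treated Foxo1 wild type, Laptm5 read -1.47 against -1.66 to -1.63 on the other 3 arrays. In DES-treated Foxo1 cKO, replicate 4 was apart: Spi1 read -5.03 against -4.48 to -4.44 on the other 3 arrays. On replicate 1 of vehicle-treated Esr1 cKO, Cd53 read -3.04 against -3.82 to -3.73 on the other 3 arrays. In vehicle-treated Esr1 cKO, replicate 4 was apart: Itgax read -7.37 against -4.71 to -4.58 on the other 3 arrays. On replicate 4 of DES-treated Esr1 wild type, C1qa read 0.81 against 1.20 to 1.20 on the other 3 arrays. In DES-treated Esr1 cKO, replicate 2 was apart: C1qa read 0.43 against 1.01 to 1.10 on the other 3 arrays. On replicate 3 of DES-treated Esr1 wild type, Mpo read -1.39 against -2.90 to -2.70 on the other 3 arrays. In DES-treated Foxa2 wild type, replicate 3 was apart: Epx read -8.59 against -6.22 to -5.97 on the other 3 arrays. On replicate 3 of vehicle-treated Esr1 wild type, Cd8a read -7.43 against -5.08 to -4.79 on the other 3 arrays. The 6 values of replicate 1 of DES-treated Foxa2 wild type are those of the array with the 75th percentile of 9024, and the 4 of replicate 4 of vehicle-treated Esr1 wild type those of the array with a 75th percentile of 551. The response to DES differed between Esr1 genotypes, by a test of the difference itself, in Itgam (-4.12), Fcgr3 (-1.01), Cd4 (-1.87) and Cd79a (2.37), with negative values for a smaller response in the cKO.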

How the results depend on the processing

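Counts of calls that moved by over 1.5 times are given here against the counts of the report, and the cause was not tested. The report's counts of members called are 4 for the Esr1 difference in DES response, 2 for Esr1 cKO under vehicle, 4 for Esr1 cKO under DES, 13 for DES in Esr1 cKO, 1 for Foxa2 cKO, 6 for Foxa2 against Esr1 wild type, 9 for Foxo1 against Foxa2 wild type, and its counts of genes called are 1539 for DES in Esr1 cKO, 4687 for the Esr1 difference in DES response, 1282 for Esr1 cKO under vehicle, 5224 for Esr1 cKO under DES, 379 for Foxa2 cKO, 38 for Foxo1 cKO, 6048 for Foxa2 against Esr1 wild type, 6029 for Foxo1 against Esr1 wild type, 2832 for Foxo1 against Foxa2 wild type. Quantile normalization gave 63 genes for Foxo1 cKO. Array weights gave 10 members for the Esr1 difference in DES response, 4 for Esr1 cKO under vehicle, 10 for Esr1 cKO under DES, 5 for Foxa2 cKO, 12 for Foxa2 against Esr1 wild type, 20 for Foxo1 against Foxa2 wild type and 5487 genes for DES in Esr1 cKO, 8377 for the Esr1 difference in DES response, 2114 for Esr1 cKO under vehicle, 8986 for Esr1 cKO under DES, 2918 for Foxa2 cKO, 419 for Foxo1 cKO, 10012 for Foxa2 against Esr1 wild type, 10412 for Foxo1 against Esr1 wild type, 8398 for Foxo1 against Foxa2 wild type. Leaving out both arrays with unusual 75th percentiles gave 7 members for Esr1 cKO under DES, 10 for Foxa2 against Esr1 wild type and 3545 genes for DES in Esr1 cKO, 7266 for the Esr1 difference in DES response, 8221 for Esr1 cKO under DES, 585 for Foxa2 cKO, 111 for Foxo1 cKO, 9543 for Foxo1 against Esr1 wild type. Fitting only the compared groups gave 20 members for DES in Esr1 cKO, 8 for Esr1 cKO under DES, 0 for Foxa2 cKO, 2 for Foxa2 against Esr1 wild type, 3 for Foxo1 against Foxa2 wild type and 4304 genes for DES in Esr1 cKO, 8411 for Esr1 cKO under DES, 9 for Foxa2 cKO, 1924 for Foxa2 against Esr1 wild type, 9819 for Foxo1 against Esr1 wild type, 550 for Foxo1 against Foxa2 wild type. A replicate block in the compared groups alone gave 1 member for Esr1 cKO under vehicle, 0 for Foxa2 cKO, 0 for Foxa2 against Esr1 wild type, 1 for Foxo1 against Foxa2 wild type and 3237 genes for DES in Esr1 cKO, 0 for Foxa2 cKO, 7 for Foxo1 cKO, 846 for Foxa2 against Esr1 wild type, 9245 for Foxo1 against Esr1 wild type, 100 for Foxo1 against Foxa2 wild type. The row-number adjustment gave 2 members for the Esr1 difference in DES response. A term for replicates 1-2 against 3-4 gave 208 genes for Foxa2 cKO, 20 for Foxo1 cKO, 1758 for Foxo1 against Foxa2 wild type. Leaving out each replicate in turn gave members called from 21 to 26 for DES in Esr1 wild type, 9 to 13 for DES in Esr1 cKO, 2 to 5 for the Esr1 difference in DES response, 1 to 4 for Esr1 cKO under vehicle, 2 to 3 for Esr1 cKO under DES, 1 to 2 for Foxa2 cKO, 0 to 0 for Foxo1 cKO, 1 to 8 for Foxa2 against Esr1 wild type, 9 to 11 for Foxo1 against Esr1 wild type, and genes called from 218 to 1057 for Foxa2 cKO, 24 to 46 for Foxo1 cKO, 1808 to 5337 for Foxo1 against Foxa2 wild type. The counts of members moved by over 1.5 times without Esr1 wild type vehicle replicate 3 (4, Esr1 cKO under vehicle) or 4 (1 there, and 2 for the difference in response), Esr1 cKO vehicle replicate 4 (1, Esr1 cKO under vehicle), Esr1 wild type DES replicate 2 or Esr1 cKO DES replicate 1 or 2 (2 each, difference in response), and Esr1 wild type DES replicate 1, 2 or 4 or Esr1 cKO DES replicate 1, 3 or 4 (2 each, Esr1 cKO under DES). They also moved without Esr1 wild type DES replicate 4 (1, Foxa2 against Esr1 wild type), Esr1 wild type DES replicate 2 or 3 or Foxo1 wild type replicate 1 (9 each, Foxo1 against Esr1 wild type) and Foxa2 wild type replicate 2 (2, Foxa2 cKO). Outside the Foxo1 line not every same-numbered pair correlated above 0.1 (2 of 4 pairs, up to 0.46, for Foxa2 cKO, 2 of 4, up to 0.374, for Foxo1 against Foxa2 wild type, and at most 1 of 4 elsewhere), and the number was not taken as pairing. Cd4 reversed with the mean of its probes in every comparison in which it was called (-0.58 for DES in Esr1 wild type, 0.85 for the difference in response, -0.53 under vehicle and 0.11 for Foxa2 against Esr1 wild type) and, uncalled, for Foxo1 against Esr1 wild type (0.80). Uncalled members that reversed were Itgam in the Foxa2 cKO with array weights (0.93); Ptprc (0.46), Itgax (-1.56) and Cd3e (-1.65) for Foxa2 against Esr1 wild type with array weights and 0.54, -1.51 and -1.76 without both arrays; and for Foxo1 against Foxa2 wild type Ptprc (-0.41) and Cd3g (-0.65) with array weights and Ptprc (-0.48) and Cd3e (0.48) without both arrays. Leaving out each replicate in turn, Ptprc ran from -0.33 to 0.54, Itgax from -1.51 to 0.54 and Cd3e from -1.76 to 0.85 for Foxa2 against Esr1 wild type, and Cd3e from -2.12 to 0.48 for Foxo1 against Foxa2 wild type, each turned by replicate 1 of Foxa2 wild type. Over all members, comparisons and alternatives, 6020 values kept direction and call, 213 lost the call, 147 gained it and 20 reversed. Low signal over background limits the lymphocyte genes, Spi1, Itgax and Epx, and the number of arrays limits all.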
